A study of Mus musculus with 16 samples.

Results

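The 10 genes described here are genes of the glucocorticoid response, 10 of the 55385 genes in the count table, and were taken by their identifiers. They are the receptor (Nr3c1, ENSMUSG00000024431.15), an enzyme that makes its hormone inside cells (Hsd11b1, ENSMUSG00000016194.14), a partner of the receptor complex (Fkbp5, ENSMUSG00000024222.17), the anti-inflammatory leucine zipper protein GILZ (Tsc22d3, ENSMUSG00000031431.13), 4 regulators of transcription (Zbtb16, ENSMUSG00000066687.5, Cebpd, ENSMUSG00000071637.5, Cebpb, ENSMUSG00000056501.3, and Per1, ENSMUSG00000020893.17) and 2 kinases (Sgk1, ENSMUSG00000019970.15, and Map3k6, ENSMUSG00000028862.6). The list was drawn up with the fasting against fed values of these same libraries in view. The fasting against fed values of the 10 genes are therefore a description, and nothing is supported with them.

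Short-read RNA-Seq was carried out on lung, spleen, kidney, heart, liver, muscle, brown adipose and white adipose of male C57BL/6 mice. The mice were acquired at an age of 12 weeks and fell into 2 groups of 3, fed mice with free access to chow and fasting mice kept without food for 24 h, and all were killed at 10 am. The authors combined each organ of the 3 mice in a group into 1 pool, which gave 16 libraries, 1 per organ and feeding state, and the 8 tissues come from the same 2 pools of mice. No spread between animals can be had from these data, and the intervals below cover counting error only.

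Glucocorticoids are steroid hormones of the adrenal cortex whose release rises in fasting and follows the time of day. They bind the glucocorticoid receptor, which waits in the cytoplasm in a complex with heat shock proteins and immunophilins, moves to the nucleus once bound, and activates genes that carry its palindromic response element or represses others through other factors. Targets that many tissues share include proteins that restrain the receptor, such as FKBP51, the product of Fkbp5, which lowers the hormone affinity of the receptor.

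The response element of the receptor is a palindrome of the arms AGAACA and TGTTCT with 3 bases of any kind between them, which reads the same on both strands, and its core ACANNNTGT lies inside it. RefSeq promoter windows of build GRCm38.p6, which run from 250 bases before to 50 bases after a start site, were found for 7 of the 10 genes, 15 windows in all. The table used here has no window for Zbtb16, Nr3c1 and Cebpd. The full element was present in 3 of 32851 windows of the table, a share of 0.00913%, and 1 of these 3 is a window of Sgk1. The other 2 belong to Acnat2, with a median level of 0.203 CPM (a gene's count relative to the library total) in the fasting libraries but up to 178 CPM in 1 library, and Gm35041, at most 0.365 CPM in any library. The core was present in 6.85% of all windows and in 3 of the 15 windows of the members, of which 2 belong to Sgk1 and 1 to Map3k6. The stretches below are shown because they hold these letters, which stand in capitals, 5′ to 3′ on the strand of the gene.

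Sgk1, chr10:21993694-21993722, plus strand, full element beginning at position -189 from the start site: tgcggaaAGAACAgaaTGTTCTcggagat

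Sgk1, chr10:21978535-21978563, plus strand, window of another start site, core alone: tctgtttgaaACAgttTGTctacatagct

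Map3k6, chr4:133240629-133240657, plus strand, core alone: gaataggggcACAggcTGTtccggaagtg

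The first of these stretches is the one in which both arms of the palindrome are complete. The E-box CACGTG, the letters through which clock factors act on period genes, was searched in the same windows on both strands. It was present in 7.15% of all windows and in 3 of the 15 windows of the members, 1 each of Sgk1, Per1 and Fkbp5. The stretches of Per1 and Fkbp5 are shown because Per1 is a clock gene and Fkbp5 had the largest mean change.

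Per1, chr11:69098771-69098800, plus strand: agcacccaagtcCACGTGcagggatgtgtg

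Fkbp5, chr17:28486301-28486330, minus strand: gcaagggccagaCACGTGggcagcggtgaa

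The FoxO letters TGTTTAC were present in 3.65% of all windows and in 1 window of the members, that of Hsd11b1. The cAMP element TGACGTCA and the C/EBP palindrome TTGCGCAA, present in 1.79% and 0.183% of all windows, were in none of the 15. A match is a description of the letters and not a binding site.

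The libraries held 14245178 to 36069968 counts, so 3 counts, taken here as the floor, correspond to 0.0832 to 0.211 CPM. Each labelled tissue carried its own markers, with summed levels of, for instance, 95120 and 87490 CPM of 5 hepatocyte genes in fed and fasting liver and 40460 and 40573 CPM of 5 cardiomyocyte genes in heart. Several tissue pairs differed in markers of other cells. In spleen the 6 acinar pancreas genes summed to 403.5 CPM fed and 11.5 CPM fasting, and the 4 erythroid genes to 2961 and 7057 CPM. In lung the 6 T cell genes went from 69.9 to 20.6 CPM, the 5 B cell genes from 343 to 177 CPM and the 6 neutrophil genes from 130 to 80.4 CPM. The 5 cardiomyocyte genes there went from 968 to 483 CPM. In white adipose the 5 B cell genes went from 346 to 82.7 CPM, and in brown adipose the 5 skeletal muscle genes from 2293 to 1064 CPM. No marker of these lists was at 0 in those libraries apart from 1 acinar gene, Prss1, in fasting spleen. The acinar genes also went from 89.2 to 184 CPM in liver, with 1 of 6 at 0 in each library. In kidney they went from 58.3 to 23.0 CPM, with 2 at 0 in each library. The 6 neutrophil genes went from 5.54 to 1.54 CPM in brown adipose, with 1 at 0 fed. In muscle they went from 0.872 to 0.226 CPM, with 1 at 0 fed and 3 fasting. The summed level of the 6 fibroblast genes, none at 0, changed by -0.65 in brown adipose to 0.03 in spleen on the log2 scale, but its collagen genes Col3a1 and Col1a1 were called lower in 8 and 7 of the 8 tissues by the rule given below. Fitted across tissues (edgeR, Benjamini-Hochberg adjusted p under 0.05), Col3a1 (-1.11 ± 0.08, SE), Col1a1 (-0.64 ± 0.11), the neutrophil gene S100a9 (-0.78 ± 0.17) and the adipocyte gene Lep (-2.11 ± 0.40) were lower. The fibroblast gene Dcn (0.34 ± 0.06) and Fabp4 of the adipocyte list (0.69 ± 0.16) were higher. The log2 fold change of Fabp4 was smallest in white adipose, 0.14, and largest in heart, 1.17. The part of all these markers in the results below was not tested, and in bulk tissue fewer cells of a type and less RNA per cell cannot be told apart.

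All 10 genes had at least 1 CPM in every library. Levels, and their orders and ranges over tissues, are given on library totals. In each tissue a gene was called when its log2 fold change of fasting over fed, computed on CPM + 0.01, was above 0.5 in size and Fisher's exact test on the counts of the 2 libraries gave an unadjusted p under 0.01, a rule that compares 2 libraries and not the conditions. Over the 80 values of the members (10 genes in 8 tissues), 55 were called higher in fasting and 4 lower. Among all genes at 1 CPM or more in either library, 7.93% of values were called higher and 9.94% lower. As the list was chosen on this contrast, nothing is read from the difference. Without spleen 50 of 70 values were called higher, and without lung 49 of 70, with 4 called lower in both cases.

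**Figure D1:**
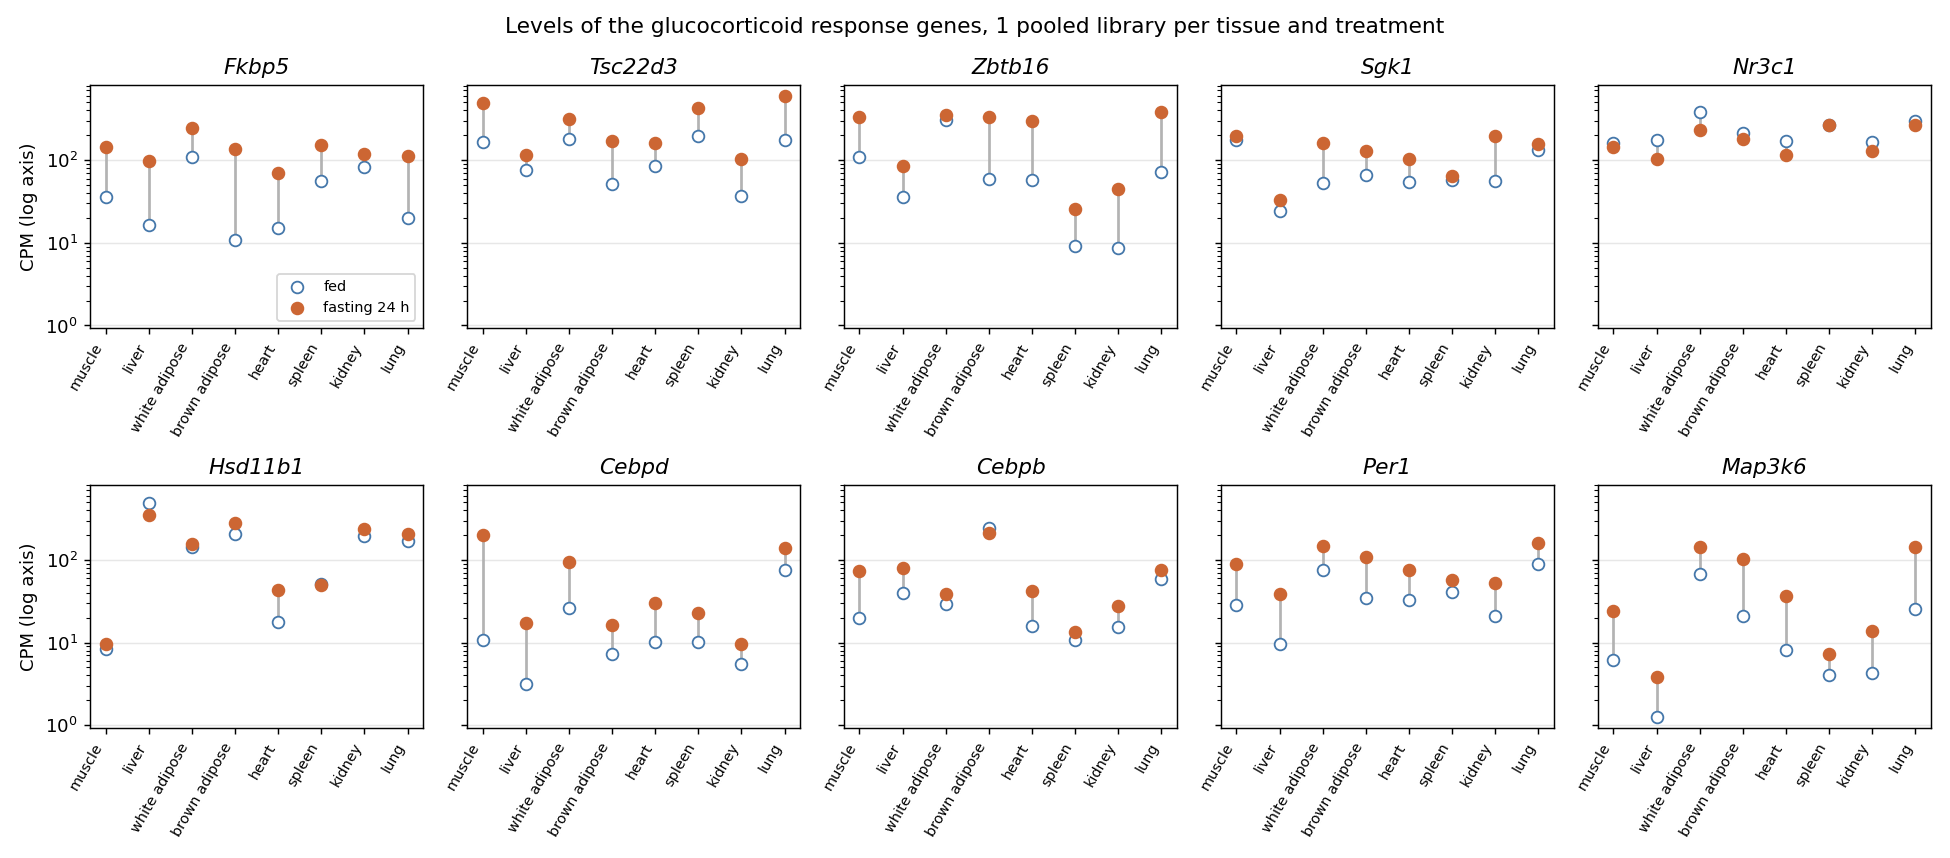
Level of each of the 10 genes in 8 tissues, in CPM on a log axis, with open points for the fed and filled points for the fasting library of a tissue and a grey line joining them. Fkbp5, Tsc22d3, Cebpd and Map3k6 have the fasting point above the fed point in all 8 tissues by more than the fold threshold, while the fasting points of Nr3c1 lie at or below the fed points.

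The receptor was the member whose level differed least between tissues and the one whose fasting level was below its fed level in all 8. Nr3c1 (chr18:39410545-39519421 of GRCm38, minus strand) stood at 160 CPM in fed and 146 CPM in fasting muscle, 173 and 103 in liver, 383 and 234 in white adipose, 213 and 179 in brown adipose, 169 and 117 in heart, 268 and 263 in spleen, 167 and 130 in kidney, and 299 and 268 in lung. Over the 8 tissues the fed levels (160 to 383 CPM) and the fasting levels (103 to 268 CPM) overlapped widely. The log2 fold change was -0.75 in liver, -0.71 in white adipose and -0.54 in heart, the 3 tissues in which it was called lower, and lay between -0.37 and -0.03 in the other tissues. In spleen the counting interval, -0.08 to 0.02, included 0, and in muscle the value of -0.13 stood beside a median of -0.14 over all genes. The heart call was lost with TMM (-0.48) and DESeq2 (-0.49) factors. A fold below 0 in all 8 tissues was also seen for 8.27% of the 10792 genes at 1 CPM or more throughout. The highest level was 2.40 times the lowest among fed tissues and 2.61 times among fasting tissues, the smallest such ratios of the 10 genes. Among fasting tissues liver had the lowest receptor level of the 8 on library totals. That place depends on the scaling, since the TMM factors were 0.619 for fasting liver, 0.884 for heart and 1.024 for kidney.

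Hsd11b1 encodes 11β-hydroxysteroid dehydrogenase type 1, which turns inert 11-dehydrocorticosterone into active corticosterone inside the cell. Its level (chr1:193221634-193264075, minus strand) was 8.31 CPM fed and 9.57 fasting in muscle, 493 and 348 in liver, 143 and 157 in white adipose, 205 and 283 in brown adipose, 17.7 and 43.5 in heart, 51.2 and 49.6 in spleen, 195 and 236 in kidney, and 168 and 206 in lung. Liver was highest and muscle lowest under both treatments, and on library totals the order of the 8 tissues was the same fed and fasting. The fed range over tissues was 59.3-fold, the widest of the members. Fasting values were called lower in liver, at a log2 fold change of -0.50, and higher in heart, at 1.30. In the other 6 tissues the log2 fold change lay between -0.05 and 0.47 and was not called. The liver value sits on the fold threshold, and with TMM or DESeq2 factors in place of the library total it was -0.38 and not called. The call was also lost with a pseudocount of 1 CPM and with totals without the 10 highest genes.

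In heart the 5 hepatocyte markers summed to 23.4 CPM fed and 84.0 CPM fasting, 0.0246% and 0.0960% of their levels in liver. The 5 adipocyte genes summed to 374 CPM fed and 832 CPM fasting, nearly all of it Fabp4, at 370 and 831 CPM. Adipoq, Cfd and Plin1 were at 0.871 and 0.262, 2.15 and 0.393, and 0.581 and 0.131 CPM, lower in fasting heart, and Lep was at 0 counts in both libraries. The part of either marker list in the Hsd11b1 value was not tested.

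Fkbp5 showed the largest mean change of the members over the 8 tissues. Its product is a co-chaperone of the receptor complex and its transcription is a standard readout of receptor activity. The fed and fasting levels (chr17:28399094-28517527, minus strand) were 36.1 and 145 CPM in muscle, 16.3 and 99.1 in liver, 109 and 243 in white adipose, 10.8 and 136 in brown adipose, 14.9 and 69.9 in heart, 56.7 and 154 in spleen, 83.3 and 120 in kidney, and 20.0 and 112 in lung. Each fasting library was above the fed library of its tissue, although fed white adipose and fed kidney were above fasting heart. The log2 fold change ran from 0.53 in kidney (95% counting interval 0.44 to 0.61) to 3.65 in brown adipose (3.43 to 3.88), where the fasting level was 12.6 times the fed level. The mean over the 8 tissues was 2.01 ± 0.97 (SD over tissues). Without brown adipose it was 1.78, below the 1.85 of Cebpd.

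On library totals the tissues differed less from each other in Fkbp5 after fasting. Among fed libraries the highest level, in white adipose, was 10.1 times the lowest, in brown adipose, and among fasting libraries the highest, again in white adipose, was 3.48 times the lowest, in heart. Brown adipose stood last of 8 in the fed order and after white adipose, spleen and muscle in the fasting order, where its counting interval overlapped that of muscle. On the same totals Zbtb16 and Per1 also had narrower ranges after fasting, 34.9-fold against 15.1-fold and 9.27-fold against 4.10-fold. Such ranges and places were not recomputed with TMM factors, which were 0.534 for fasting muscle and 1.381 for fasting white adipose. The ranges of Tsc22d3 (5.39-fold fed, 5.76-fold fasting), Sgk1 (7.29 and 6.04), Cebpd (23.9 and 21.2) and Nr3c1 moved less, and those of Hsd11b1 (59.3 and 36.4), Map3k6 (53.0 and 37.6) and Cebpb (22.5 and 15.9) were in between.

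Inside the span of Fkbp5 lie 2 annotated noncoding genes of the same strand, without sharing an exon base with it. AC154912.5 (chr17:28424723-28426430) went from 0.241 CPM, 4 counts, to 13.1 CPM in brown adipose, and AC154912.3 (chr17:28457484-28461095) from 1.81 to 32.2 CPM. Both were higher in fasting in all 8 tissues, with log2 fold changes of 1.44 to 5.71 and 1.44 to 4.15. In kidney, where Fkbp5 had its smallest change, the 2 genes had log2 fold changes of 1.83 and 1.81. Reads of such loci may belong to unspliced Fkbp5 RNA or to transcripts of their own, and these cannot be told apart here. The level of AC154912.3 was 3.68% to 21.2% of that of Fkbp5 in fed libraries and 7.34% to 23.7% in fasting libraries, and was a larger share after fasting in every tissue but lung. For AC154912.5 the share was 2.24% to 9.98% fed and 3.28% to 10.4% fasting, larger after fasting in every tissue but heart and lung.

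**Figure D2:**
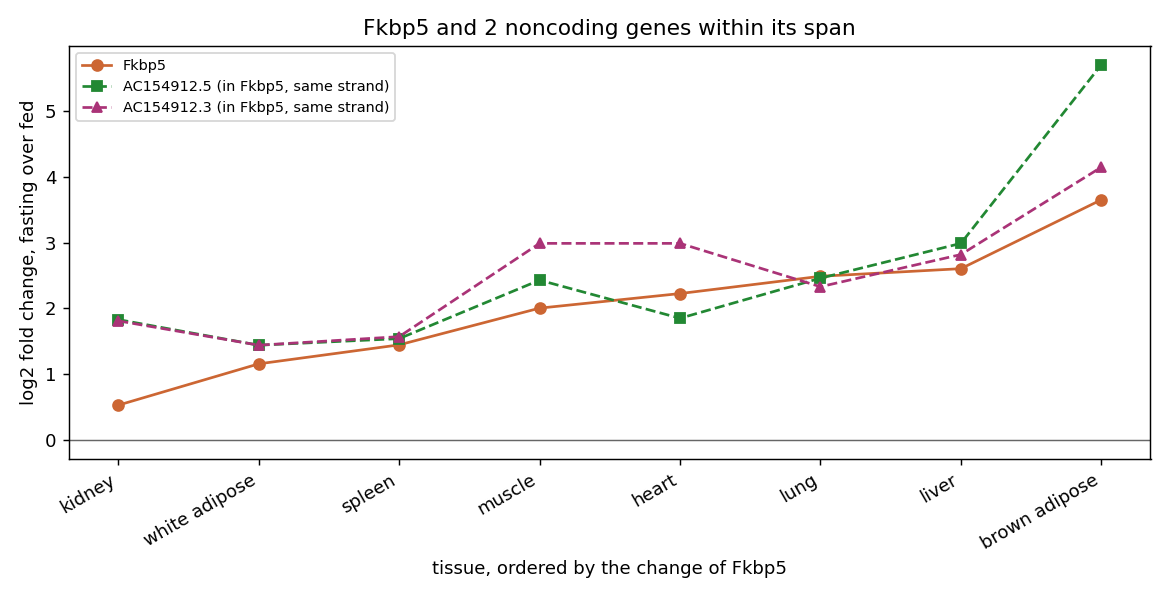
Log2 fold change of fasting over fed (vertical axis) of Fkbp5 and of 2 noncoding genes inside its span on the same strand, for the 8 tissues in the order of the change of Fkbp5. All 3 lines are lowest in kidney, white adipose and spleen, or close to it, and highest in brown adipose, at 3.65, 5.71 and 4.15.

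Tsc22d3 encodes GILZ, which binds inflammatory transcription factors and carries part of the anti-inflammatory action of glucocorticoids. It stood (chrX:140539528-140600659, minus strand) at 165 CPM fed and 492 fasting in muscle, 75.9 and 117 in liver, 179 and 314 in white adipose, 51.7 and 172 in brown adipose, 85.1 and 163 in heart, 199 and 430 in spleen, 36.8 and 104 in kidney, and 177 and 598 in lung. It was called higher in all 8 tissues, with the smallest log2 fold change in liver, 0.62, and the largest in lung, 1.76. The SD of its log2 fold change over tissues, 0.44 around a mean of 1.26, was the smallest of the members above 0 in every tissue. Per kilobase of exon it was the highest of the 10 genes in muscle, spleen and lung under both treatments and reached 138 CPM per kb in fasting lung. In lung this stood beside T cell markers at 69.9 CPM fed and 20.6 CPM fasting, B cell markers at 343 and 177 and neutrophil markers at 130 and 80.4. The part of these differences in the Tsc22d3 value was not tested.

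Of the 10 genes, 4 (Fkbp5, Tsc22d3, Cebpd and Map3k6) were called higher in all 8 tissues. Of the 10792 genes at 1 CPM or more throughout, 16 were, or 0.148%. Together with Zbtb16 and Per1, called higher in 7 tissues each, 6 of the 10 were called higher in 6 tissues or more, against 74 of 10792 genes, or 0.686%. With Sgk1, 7 members had a log2 fold change above 0 in all 8 tissues, against 2.92% of these genes. The list was chosen on these values and the counts are given as a description.

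Zbtb16 encodes the zinc finger repressor PLZF. Its levels (chr9:48654297-48836222, minus strand) were 109 CPM fed and 332 fasting in muscle, 35.5 and 85.5 in liver, 306 and 357 in white adipose, 58.5 and 330 in brown adipose, 57.8 and 297 in heart, 9.18 and 25.4 in spleen, 8.78 and 45.4 in kidney, and 72.7 and 383 in lung. The log2 fold change lay between 1.27 and 2.50 in 7 tissues. White adipose, whose fed level was already the highest of the 8, had 0.22 and was not called. Fasting muscle, white adipose, brown adipose, heart and lung came to lie between 297 and 383 CPM, while spleen and kidney were at 25.4 and 45.4 CPM. Per kilobase of exon Zbtb16 was the highest of the 10 genes in fed white adipose, 58.0 CPM per kb, and in fasting heart, 56.3 CPM per kb.

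Cebpd and Cebpb encode C/EBPδ and C/EBPβ, leucine zipper factors of the acute phase response, of adipocyte differentiation and of muscle wasting under glucocorticoids. Cebpd (chr16:15887286-15891031, plus strand) had the largest single value among the members, in muscle, where 261 counts in the fed library (10.8 CPM) faced 6281 in the fasting library (203 CPM), an 18.7-fold difference. In the other tissues it stood at 3.17 CPM fed and 17.5 fasting in liver, 26.1 and 93.2 in white adipose, 7.35 and 16.2 in brown adipose, 10.2 and 29.8 in heart, 10.2 and 22.9 in spleen, 5.44 and 9.58 in kidney, and 75.8 and 140 in lung. It was called higher in all 8, with log2 fold changes of 0.82 in kidney to 4.23 in muscle. Fasting muscle thereby was first among the tissues for Cebpd, while fed muscle came after lung and white adipose.

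Cebpb (chr2:167688915-167690418, plus strand) followed another order. Its fed and fasting levels were 19.7 and 72.5 CPM in muscle, 39.6 and 80.0 in liver, 28.9 and 38.8 in white adipose, 242 and 212 in brown adipose, 15.9 and 41.9 in heart, 10.7 and 13.3 in spleen, 15.4 and 27.7 in kidney, and 59.5 and 76.5 in lung. Brown adipose was far above the other 7 tissues in both treatments, at 161 CPM per kb fed and 141 fasting, and was the tissue with a value below 0, -0.19. Muscle (1.88), heart (1.40), liver (1.01) and kidney (0.85) were called higher and the rest were not called. Both genes overlap a neighbour on the opposite strand. Cebpd shares 562 exon bases with Spidr, whose log2 fold change lay between -0.29 and -0.02, and Cebpb shares 312 with Tmem189, which had -0.61 to 0.96. The strand setting of the counting is not given in the sources used here, so reads of the shared bases could not be assigned to either strand.

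Per1 encodes the clock protein period 1, whose transcription glucocorticoids induce directly and which also cycles over the day. All tissues were taken at the same hour. Its levels (chr11:69095217-69109960, plus strand) were 28.5 CPM fed and 90.5 fasting in muscle, 9.51 and 39.1 in liver, 74.6 and 149 in white adipose, 34.7 and 108 in brown adipose, 32.4 and 74.6 in heart, 41.5 and 57.7 in spleen, 21.1 and 53.1 in kidney, and 88.1 and 160 in lung. On library totals lung was highest and liver lowest under both treatments, and liver had the largest log2 fold change, 2.04. Spleen, at 0.48, was just under the threshold, and the remaining 7 tissues were called higher.

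Sgk1 is the serum- and glucocorticoid-regulated kinase that stimulates sodium uptake in the kidney. It was called higher in 4 of 8 tissues, the fewest of the members above 0 in all tissues. Its levels (chr10:21882184-21999903, plus strand) were 176 CPM fed and 195 fasting in muscle, 24.2 and 32.8 in liver, 52.5 and 160 in white adipose, 65.8 and 130 in brown adipose, 55.0 and 103 in heart, 57.1 and 65.1 in spleen, 56.0 and 198 in kidney, and 134 and 156 in lung. Kidney (1.82), white adipose (1.61), brown adipose (0.99) and heart (0.91) were called higher. Muscle (0.14), spleen (0.19) and lung (0.22) were not, and liver (0.44) was called with TMM or DESeq2 factors, at 0.56. The 2 highest fed tissues, muscle and lung, were among those not called. On library totals kidney, below muscle, lung, brown adipose and spleen in the fed order, was first in the fasting order, where its interval overlapped that of muscle. This place depends on the scaling, since the TMM factors of fasting kidney and muscle were 1.024 and 0.534.

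Map3k6, a stress-activated kinase of the MAP kinase cascade also known as ASK2, was the lowest of the 10 genes per kilobase in fed muscle, liver, spleen and kidney. It stood (chr4:133240818-133252929, plus strand) at 6.15 CPM fed and 24.2 fasting in muscle, 1.26 and 3.85 in liver, 66.7 and 144 in white adipose, 21.2 and 101 in brown adipose, 8.25 and 36.4 in heart, 4.02 and 7.33 in spleen, 4.28 and 13.7 in kidney, and 25.8 and 145 in lung. All 8 values were called higher, from a log2 fold change of 0.87 in spleen to 2.49 in lung. The liver value, 1.60, rests on 29 and 96 counts.

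**Figure D3:**
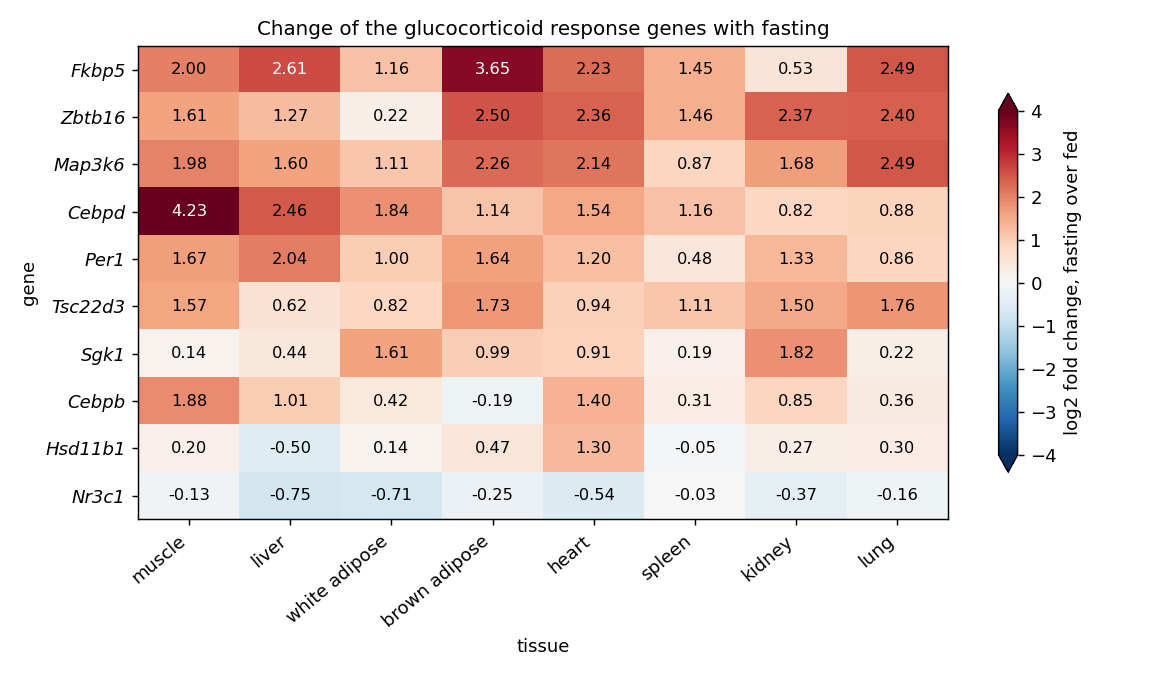
Log2 fold change of fasting over fed for each of the 10 genes (vertical axis, ordered by mean change) in each tissue (horizontal axis), printed in the cells, with red for higher and blue for lower in fasting. The largest cell is Cebpd in muscle, 4.23, followed by Fkbp5 in brown adipose, 3.65, and the bottom line, Nr3c1, has a value below 0 in each tissue.

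Read by tissue, the members had a median log2 fold change of 1.64 in muscle, 1.14 in liver, 0.91 in white adipose, 1.39 in brown adipose, 1.35 in heart, 0.67 in spleen, 1.09 in kidney and 0.87 in lung, while the median over all genes lay between -0.14 and 0.07. Muscle had 7 members called higher beside 7.80% of all genes at 1 CPM or more, liver 7 beside 7.34%, white adipose 6 beside 19.8%, brown adipose 7 beside 8.68%, heart 9 beside 7.01%, spleen 5 beside 3.62%, kidney 8 beside 4.48% and lung 6 beside 4.23%. The 4 values called lower were Nr3c1 and Hsd11b1 in liver, where 15.8% of genes were called lower, Nr3c1 in white adipose, 9.23%, and Nr3c1 in heart, 9.65%. No member was called lower in muscle, brown adipose, spleen, kidney and lung, where 16.4%, 12.2%, 2.33%, 6.23% and 10.1% of all genes were. In heart every member was called in 1 direction or the other, Nr3c1 with library totals but not with TMM or DESeq2 factors. Spleen had the smallest member median, beside the acinar pancreas and erythroid marker differences given above, whose part was not tested.

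The members did not follow 1 common order of tissues. Over the 8 log2 fold changes, here computed on CPM + 1, Pearson's r was highest for Tsc22d3 with Nr3c1 (0.76), Zbtb16 with Map3k6 (0.75) and Cebpd with Cebpb (0.74). It was lowest for Sgk1 with Nr3c1 (-0.49) and Sgk1 with Fkbp5 (-0.46). These coefficients describe 8 points from the same 2 pools of mice and carry no test. Muscle led for both C/EBP genes, brown adipose for Fkbp5 and Zbtb16, lung for Tsc22d3 and Map3k6, liver for Per1 and kidney for Sgk1. The leads for Zbtb16, Tsc22d3 and Map3k6 lay within counting error, since the intervals of brown adipose and lung overlapped.

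Fitted over all 16 libraries with tissue as a block (edgeR, quasi-likelihood test, 17296 genes), the treatment term of the members had log2 fold changes of 2.03 ± 0.30 (SE) for Fkbp5, 1.83 ± 0.26 for Zbtb16, 1.83 ± 0.19 for Map3k6, 1.75 ± 0.35 for Cebpd, 1.31 ± 0.16 for Per1, 1.30 ± 0.14 for Tsc22d3, 0.83 ± 0.19 for Sgk1, 0.79 ± 0.21 for Cebpb, 0.30 ± 0.15 for Hsd11b1 and -0.33 ± 0.10 for Nr3c1. The SE takes the 8 tissues as repeats, although they come from the same mice. By a Benjamini-Hochberg adjusted p under 0.05, 7 of the 10 were called higher beside 2.31% of all genes, and 0 lower beside 2.08%. The call of Sgk1 was lost without any 1 tissue but spleen, with adjusted p of 0.0551 to 0.103, and that of Cebpd without liver, brown adipose or heart, with 0.0502 to 0.0682. DESeq2 called 8 higher and 1, Nr3c1, lower, beside 5.60% and 6.52% of the 15375 genes with an adjusted p, and at an unadjusted p under 0.05 edgeR also had 8 higher and 1 lower, beside 10.6% and 13.1% of its genes. Nothing is read from these counts, since they use the contrast that chose the list.

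The relatives of the members were compared next, since related proteins need not share a response. Of 14 relatives, 12 were abundant enough for the fit, and 1, Per2, was called higher, and 0 lower, where 2.31% and 2.08% of all genes were. At an unadjusted p under 0.05, 3 were higher and 2 lower, beside 10.6% and 13.1% of all genes, and DESeq2 called 1 each way, beside 5.60% and 6.52%. Per2, the other light- and hormone-responsive period gene, had a log2 fold change of 1.24 ± 0.18 (SE, edgeR adjusted p = 0.0102). With DESeq2, other scaling or filters, or tissues left out, its adjusted p ran from 1.41e-07 to 0.0423 over 12 alternatives. It was higher in 8 of 8 tissues, from 0.21 in spleen, not called, to 2.11 in heart. Within single tissues, 15 values of the relatives were called higher and 9 lower, all among the 100 of 112 at 1 CPM or more, beside the 7.93% and 9.94% over all genes at that level.

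Fkbp4, whose product FKBP52 competes with FKBP51 for the receptor complex, lay on the other side of 0 from Fkbp5. Its fed and fasting levels were 93.5 and 72.7 CPM in muscle, 132 and 92.1 in liver, 63.9 and 59.9 in white adipose, 116 and 76.4 in brown adipose, 376 and 213 in heart, 68.8 and 73.5 in spleen, 206 and 147 in kidney, and 115 and 95.6 in lung. The values of heart (-0.82), brown adipose (-0.60) and liver (-0.52) were called lower. Across tissues its log2 fold change of -0.34 ± 0.09 did not pass the edgeR test (adjusted p = 0.0639).

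Nr3c2, the mineralocorticoid receptor, which binds the same hormones, had -0.20 ± 0.08 across tissues and was not called there, but was called lower in muscle, at -0.54. The 3 other TSC22 genes lay near 0 (0.08 ± 0.17 for Tsc22d1, -0.08 ± 0.08 for Tsc22d2 and -0.08 ± 0.09 for Tsc22d4), although Tsc22d1 was called lower in liver, at -1.40, and Tsc22d4 in muscle, at -0.67. Sgk3 had 0.04 ± 0.06. Map3k5 was called higher in liver (0.74), white adipose (0.74) and brown adipose (0.95) and lower in muscle (-0.72). Per3 was called higher in liver (1.31), brown adipose (0.71), heart (0.58) and lung (0.66), and Sgk2 in brown adipose (1.27). Apart from Per2, the relatives named were chosen after their values were seen. Cebpa, the C/EBP factor of mature fat and liver cells, was called lower in white adipose, from 756 to 374 CPM, and in brown adipose, from 765 to 463 CPM, while Cebpd was higher in both. Hsd11b2, which inactivates corticosterone, was above 1 CPM in kidney alone, at 57.2 CPM fed and 47.9 CPM fasting, and its change of -0.25 there was not called.

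**Figure D4:**
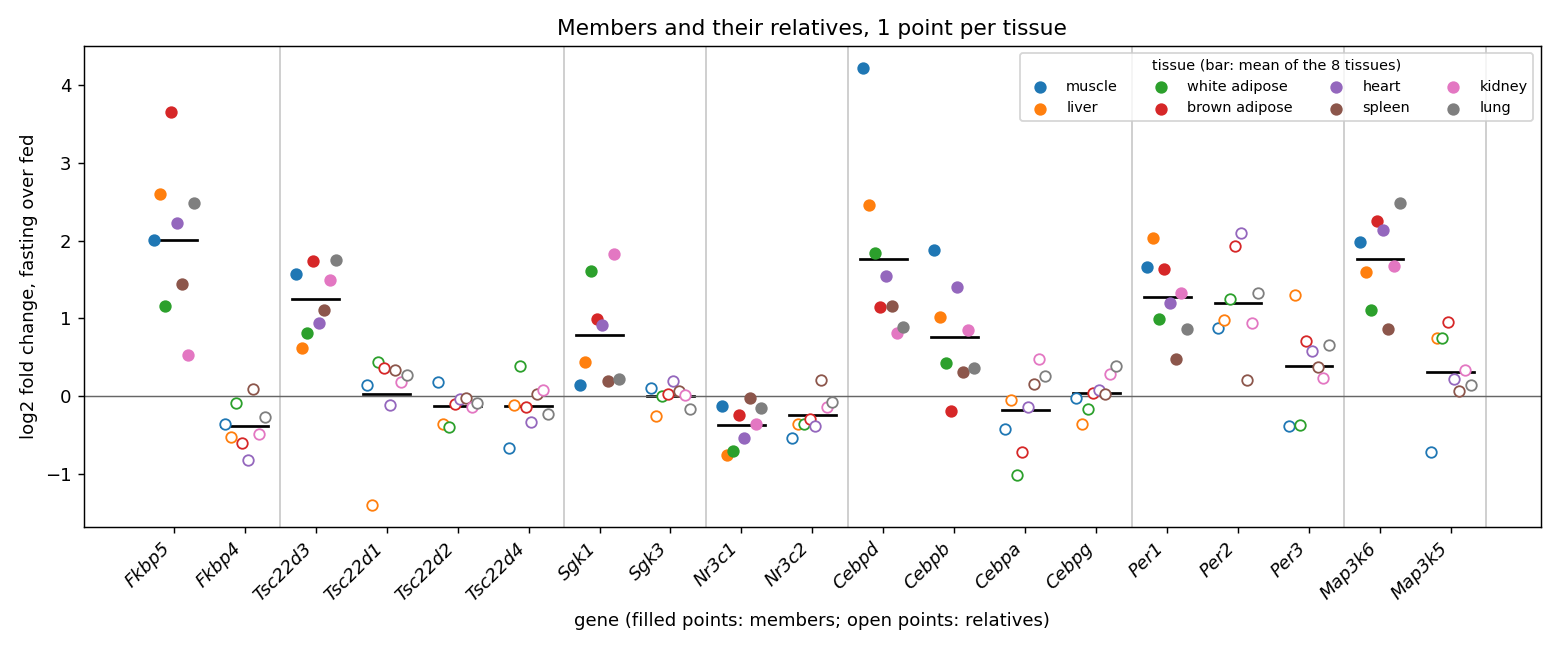
Log2 fold change of fasting over fed (vertical axis) for members of the list (filled points) and their relatives (open points), 1 point per tissue with the mean of the 8 tissues as a bar and grey lines between families. Among the relatives Per2 has the highest mean, 1.20, and Fkbp4 the lowest, -0.38, opposite to the 2.01 of Fkbp5.

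The machinery of the receptor was measured by lists drawn up with earlier results of these data known. Of 11 chaperones of the receptor complex, edgeR called 0 higher and 0 lower across tissues, beside 2.31% and 2.08% of all genes. At an unadjusted p under 0.05 there were 0 higher and 2 lower, beside 10.6% and 13.1%, and DESeq2 called 0 higher and 1 lower, beside 5.60% and 6.52%. Within tissues 7 of 88 values, all at 1 CPM or more, were called higher and 11 lower, beside 7.93% and 9.94% over all genes at that level. In liver 4 of 11 chaperones were called higher, beside 7.34% of all genes there, among them the constitutive Hsp70 gene Hspa8 (545 CPM fed and 1744 CPM fasting) and the Hsp90 gene Hsp90aa1 (173 and 264), and in brown adipose 5 of 11 were called lower, beside 12.2% of all genes, among them Dnaja1 (115 and 62.0) and Stip1 (78.2 and 49.7). These 4 were chosen after their values were seen. Of 12 coactivators and corepressors edgeR likewise called 0 in either direction, with 2 higher and 0 lower at an unadjusted p under 0.05 and 1 higher and 0 lower by DESeq2, beside the same shares of all genes, and 2 of 96 single values were called each way.

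Hormone supply was covered by 7 genes, of which 4 entered the fit. The fit called 1 higher and 0 lower, beside 2.31% and 2.08% of all genes. At an unadjusted p under 0.05 it had 2 higher and 0 lower, beside 10.6% and 13.1%. DESeq2 called 2 higher and 0 lower, beside 5.60% and 6.52%. Within tissues 7 of 56 values were called higher and 3 lower. Of the 35 at 1 CPM or more these were 20% and 8.57%, beside 7.93% and 9.94% over all genes at that level. Abcb1b, an efflux transporter of steroids, was called higher (0.39 ± 0.09, edgeR adjusted p = 0.0455) but lost the call in 9 of 12 alternatives, with adjusted p from 0.00723 to 0.161. H6pd, which supplies NADPH to the Hsd11b1 enzyme, was called higher in brown adipose (225 to 392 CPM), spleen (92.2 to 162) and lung (270 to 383), and at 0.42 ± 0.11 it was not called across tissues (edgeR adjusted p = 0.0599). In liver the corticosteroid-binding globulin gene Serpina6 went from 138 to 31.7 CPM, a log2 fold change of -2.12 (counting interval -2.24 to -2.01), and Akr1d1, a 5β-reductase that clears steroids, from 203 to 108 CPM, -0.91. These 2 and H6pd were chosen after their values were seen, and Serpina6 was at most 0.351 CPM in every other tissue.

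A wider list of 27 other genes known as receptor targets was measured beside the 10. The lists share genes, and Per2 is counted among the relatives, these targets and the clock genes, Per3 among the relatives and the clock genes, Fkbp4 among the relatives and the chaperones, and Hsd11b2 among the relatives and the genes of hormone supply. The edgeR fit called 14 of the 27 higher and 0 lower, beside 2.31% and 2.08% of all genes, while at an unadjusted p under 0.05 it had 20 higher and 0 lower, beside 10.6% and 13.1%, and DESeq2 called 18 higher and 0 lower, beside 5.60% and 6.52%. The median log2 fold change was 0.90, against -0.01 over all 17296 genes. Many of these genes also answer to falling insulin, to glucagon or to fatty acids, and the list was made with earlier results in view, so it is not independent evidence of a direction. The count fell to 5 without brown adipose, 6 without lung, 7 without muscle and 8 without heart, and was 10 to 12 without any 1 of the other 4 tissues. Within tissues 124 of 216 values were called higher and 12 lower, and of the 211 at 1 CPM or more 123 and 11, beside 7.93% and 9.94% over all genes at that level. There were 18 of 27 higher in muscle, white adipose and heart, where 7.80%, 19.8% and 7.01% of all genes were (in heart 1 of the 18, Tat, was under 1 CPM), and 12 in liver, spleen and kidney, where 7.34%, 3.62% and 4.48% were.

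Ddit4, an inhibitor of mTORC1 also known as REDD1, had the largest mean and was called higher in all 8 tissues, with 4.65 CPM fed and 164 CPM fasting in muscle, 10.9 and 145 in brown adipose and 10.7 and 26.7 in kidney. Its change across tissues was 2.53 ± 0.40 (edgeR adjusted p = 0.0131), with adjusted p of 2.92e-09 to 0.0610 over 12 alternatives and the call lost in 1 of them. Angptl4, the secreted inhibitor of lipoprotein lipase, was called higher in 7 tissues, from 5.98 to 114 CPM in heart but 496 to 621 CPM in brown adipose, where it was not called. Its change was 2.25 ± 0.40 (edgeR adjusted p = 0.0200, 0.0578 at the highest over 12 alternatives, with the call lost in 2). Cdkn1a, the cell cycle inhibitor p21, was called higher in 7 tissues and stood at 3.71 and 3.56 CPM in spleen. Arrdc2 was called in 6 tissues and had 25.2 CPM fed and 205 CPM fasting in muscle. The metallothionein gene Mt2 was called in 6 tissues, with 5.81 CPM fed and 85.1 CPM fasting in heart.

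Some genes of this list went against it. Dusp1, a phosphatase that ends MAP kinase signals, was called lower in brown adipose (60.6 to 24.4 CPM), liver (32.4 to 18.4) and muscle (54.4 to 34.7) and higher in kidney (36.2 to 66.5) and spleen (25.3 to 40.0). Pik3r1, a regulatory subunit of PI 3-kinase, was called lower in white adipose (656 to 340 CPM), brown adipose (345 to 222) and liver (146 to 101) and higher in none. Anxa1, annexin A1, was called lower in white adipose, from 338 to 159 CPM, and in no other tissue was it called. These 3 were chosen after their values were seen.

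**Figure D5:**
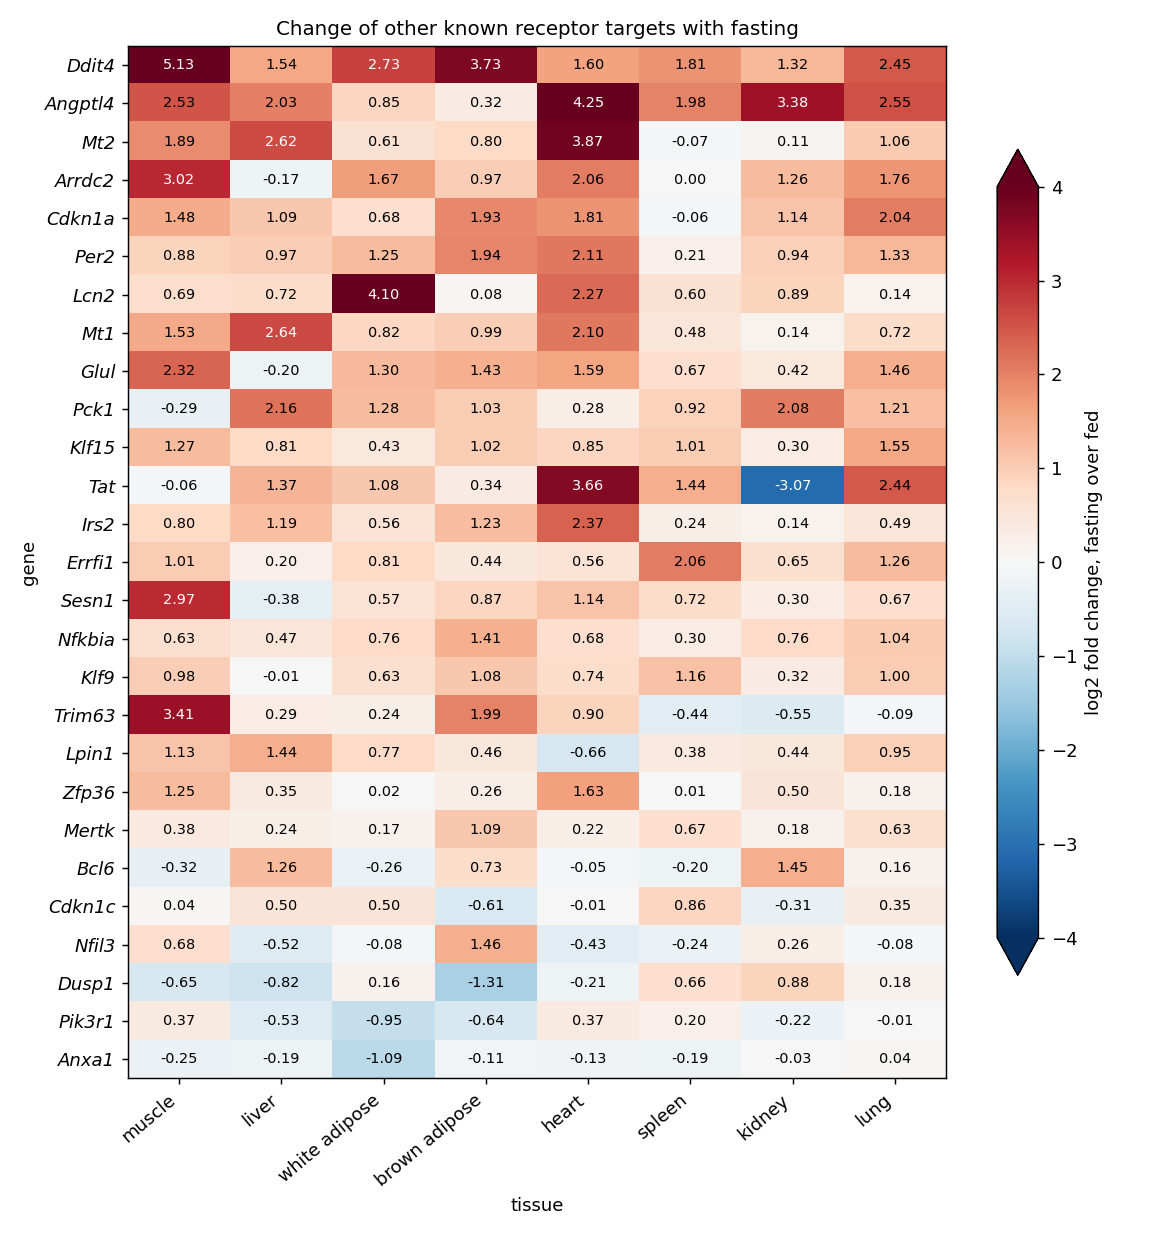
Log2 fold change of fasting over fed for 27 other known receptor targets (vertical axis, ordered by mean change) in 8 tissues, printed in the cells, with red for higher and blue for lower in fasting and colours capped at 4 in size. Ddit4 is above 0 in all tissues and reaches 5.13 in muscle, while Dusp1 and Anxa1 near the bottom have negative values in several tissues.

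The clock genes were described because Per1 belongs to both systems. Of 13 genes edgeR called 2 higher, Per2 and Tef (0.58 ± 0.14, a call lost in 8 of 12 alternatives), and 0 lower, beside 2.31% and 2.08% of all genes. At an unadjusted p under 0.05 there were 5 higher and 1 lower, beside 10.6% and 13.1%, and DESeq2 called 2 higher and 0 lower, beside 5.60% and 6.52%. Within tissues 26 values were called higher and 12 lower, all among the 103 of 104 at 1 CPM or more, beside 7.93% and 9.94% over all genes at that level. Dbp, an output gene of the clock chosen after its values were seen, went from 65.3 to 13.2 CPM in muscle and from 22.7 to 8.56 CPM in brown adipose but from 10.3 to 34.5 CPM in liver. Per1 and Per2 were above 0 in all 8 tissues, including those in which Dbp was lower.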

How the data were processed

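The authors made strand-specific paired-end libraries with reads of 100 base pairs from pooled tissue, used fastp 0.23.2 for trimming and FastQC 0.11.8 for quality, mapped to GRCm38 by HISAT2 2.2.1.0, and obtained gene counts from featureCounts in Subread 2.0 on GENCODE release 24. They deposited raw counts for 16 libraries, with an other value, the exon length of each gene, used here for levels per kilobase. Whether reads or pairs were counted is not given in the sources used here. No column went unused (0).

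Groups were taken from the labels. Symbols were matched by identifier to GENCODE release 21, 55144 of 55385 without their version. Log2 fold changes were computed on CPM with a pseudocount of 0.01 as in the study's methods, with Fisher's exact test (two-sided), and counting intervals are exact binomial (95%). All 16 libraries were fitted in edgeR 4.0.16 (R 4.3.3, TMM factors, filterByExpr by treatment, quasi-likelihood test, 7 residual degrees of freedom). DESeq2 1.42.0 was an alternative. Other alternatives were a pseudocount of 1 CPM, TMM and DESeq2 factors, totals without the 10 highest genes, a fold threshold of 1, adjusted p, the fold alone, a filter at 1 CPM, an assumed coefficient of variation of 0.4, library totals, no filter, no tissue block and tissues left out. Both steps were tested on simulated data.

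The members and all lists were chosen with earlier results of these data known. Named are the 10 members, and of each list the genes called by edgeR or in 6 or more tissues, up to 6 by size, besides overlapping genes and, of the 3 genes most like each member, the closest. The 2 highest genes of a marker list, also part of the rule, are given within sums, and some, such as Fabp4, Cfd and Col3a1, also singly. Other genes of the lists are named outside this rule, chosen after their values were seen. The sequences are from RefSeq, GRCm38.p6.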

Additional observations from a re-analysis of the deposited data

Results flagged for a closer look

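Hsd11b1 had opposite values in 2 tissues under the same contrast. Its log2 fold change of fasting over fed was -0.50 in liver, called lower, and 1.30 in heart, called higher. The difference between the 2 tissues was not tested, since each tissue has 1 library per treatment. The liver value became -0.38 with TMM or DESeq2 factors and -0.48 with totals without the 10 highest genes, and was then not called. With a pseudocount of 1 CPM it was -0.50 and also not called. On log2 scales, of the CPM of each treatment and of the fold change, no tissue stood apart from the other 7 by Dixon's 95% criterion in 30 sets of 8 values of the members, in which chance gives about 1 in 20. On the CPM itself 6 of 20 sets passed it, each through its highest tissue. These were brown adipose for Cebpb, at 242 CPM fed and 212 CPM fasting, and in fed libraries white adipose for Zbtb16 (306 CPM) and Map3k6 (66.7 CPM), liver for Hsd11b1 (493 CPM) and lung for Cebpd (75.8 CPM).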

How the results depend on the processing

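The fit across tissues pairs the fed and the fasting library of a tissue through its tissue block. Within a tissue no paired analysis was possible because each group has 1 library and the labels carry no replicate numbers. If the pooled libraries varied with a coefficient of variation of 0.4, 11 of the 55 member values called higher and 0 of the 4 called lower would be called by edgeR's exact test. Each library is a pool of mice, so this setting is not the variation between single animals. TMM and DESeq2 factors each gave 56 higher and 2 lower, and a fold threshold of 1 gave 43 and 0. The 5 other alternatives gave 55 higher and 3 to 4 lower, and 49 to 50 and 4 to 4 without spleen or lung, alternatives chosen after seeing the data. TMM factors shifted all log2 fold changes by 0.12 in liver and -0.11 in white adipose and by less than 0.1 elsewhere. They moved 26 of the 80 member values by more than the counting interval and DESeq2 factors 24, and no value changed sign. The calls of Hsd11b1 in liver and Nr3c1 in heart were lost and that of Sgk1 in liver gained. Of the 30 genes most like a member, 6 were shared with Spearman's rho and 13 with TMM factors. Orders and ranges of levels over tissues were not recomputed with other factors. They depend on the scaling, since TMM factors ran from 0.534 in fasting muscle to 1.506 in fed spleen.

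Across tissues edgeR called 400 of all genes higher and 359 lower. DESeq2 called 861 and 1003, and library totals alone gave 638 lower. Without both adipose tissues it was 96 and 35, and without 1 tissue 104 to 340 and 52 to 381, fewest without brown adipose. Without the tissue block 0 and 1 were called, 0 members, 0 other receptor targets and 0 relatives. Of the members, 5 to 7 were called higher without 1 tissue, and 1, Nr3c1, was lower with DESeq2 and 1 with library totals. Of the other receptor targets 5 were called without both adipose tissues and 5 to 12 without 1 tissue. Beyond fewer samples, the cause of these losses was not tested. Depth limits chiefly Map3k6 in liver, at 29 and 96 counts.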

Other observations

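The genes whose change over the 8 tissues was most like that of a member were sought among the 10792 genes at 1 CPM or more throughout, by Pearson's r of the log2 fold change on CPM + 1, and the coefficients are given without a test since so many genes were searched over 8 points. The choice depends on the measure, since 6 of the 30 genes so chosen, 3 for each member, were chosen again with Spearman's rho and 13 with TMM factors. For Map3k6 the closest gene was Cdkn1a, r = 0.969, with log2 fold changes on this scale of 1.90 in brown adipose, 1.98 in lung, 1.70 in heart and -0.05 in spleen. For Hsd11b1 the closest was the ETS factor gene Etv5, r = 0.987, with -0.85 in liver and 1.01 in heart, the same 2 tissues in which Hsd11b1 was called. For Cebpb the closest was Mbd6, r = 0.988, with 0.50 in muscle and -0.43 in brown adipose. For Fkbp5 and Tsc22d3 the closest genes moved little. Mtpap, the closest to Fkbp5 (r = 0.957), stayed between -0.08 and 0.16, and Top1, the closest to Tsc22d3 (r = 0.925), between -0.11 and 0.14. Puf60 (Cebpd, r = 0.972), Psen2 (Nr3c1, 0.958), A530041M06Rik (Sgk1, 0.959), Farp2 (Per1, 0.938) and Rasgrp2 (Zbtb16, 0.934) were the closest to the others.

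Lamb3, which encodes a laminin chain, lies across Hsd11b1 on the opposite strand and shares no exon base with it. It went from 3.78 to 32.5 CPM in liver, from 87 to 810 counts, a log2 fold change of 3.10, while Hsd11b1 had -0.50 there. In the other 7 tissues the change of Lamb3 lay between -1.82, in muscle, and 0.79, in brown adipose. In liver, AC154912.1, on the opposite strand of Fkbp5, went from 0.955 to 6.97 CPM, 22 and 174 counts.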
